A study of Mus musculus with 24 samples.

Results

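The miR-376 and miR-411 products are brain miRNAs of one genomic cluster in which reads can carry a G where the listed sequence has an A inside the seed. They were taken here by name, as listed in the files (mmu-mir-376a-3p, mmu-mir-376a-5p, mmu-mir-376b-3p, mmu-mir-376b-5p, mmu-mir-376c-3p, mmu-mir-411-5p and mmu-mir-411-3p, written miR from here on), and are 7 of the 1073 mature miRNA names with a read in the series. Small RNA was sequenced from exosome-enriched fractions (EEFs) of hippocampus from male C57BL/6 mice (C57BL/6OlaHsd in the study's methods) of 6 to 9 weeks. Mice received KA (kainic acid, 0.3 µg in 0.2 µl) or, as controls, PBS into the basolateral amygdala nucleus, KA induced status epilepticus that was curtailed with midazolam, and tissue was collected after 24 h or 2 weeks. Vesicles were isolated by ultracentrifugation (UC, 5 pooled hippocampi per sample) or by the ExoQuick precipitation kit (kit, 4 pooled hippocampi per sample) and treated with RNase A before RNA extraction. Each of the 8 groups (method by treatment by time) held 3 libraries, 24 in all. The pools are whole hippocampi, so the cell type that released the vesicles is not known, and fewer vesicles of one source cannot be told apart from less RNA per vesicle.

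A miRNA is cut as one arm of a hairpin transcript, and bases 2 to 8 from its 5′ end, the seed, pair with target mRNAs. ADAR enzymes convert adenosine to inosine in double-stranded RNA, and inosine is read as G after sequencing, so a single edited base in the seed gives a miRNA with another target-pairing sequence. The miR-376 and miR-411 hairpins belong to the imprinted miR-379/410 cluster, whose miRNAs are abundant in brain and whose miR-376 hairpins are textbook substrates of ADAR editing.

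The sequences show where the edited bases lie. Each is the RefSeq sequence (GRCm38.p6) from 5′ to 3′, with the seed in capitals, for the 6 of 7 members that the sequence table held. The edited forms carry the substitution A6G in miR-376b-3p and A5G in miR-411-5p, with positions counted from 1 at the 5′ end.
miR-376b-3p: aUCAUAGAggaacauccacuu
miR-376b-3p edited: aUCAUGGAggaacauccacuu
miR-376a-3p: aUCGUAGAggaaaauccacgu
miR-411-5p: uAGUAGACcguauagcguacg
miR-411-5p edited: uAGUGGACcguauagcguacg
miR-376a-5p: gGUAGAUUcuccuucuaugagu
miR-376b-5p: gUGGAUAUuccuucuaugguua
miR-411-3p: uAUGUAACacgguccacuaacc

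All 4 hairpins lie on the plus strand of chromosome 12 (GRCm38). Mir411 spans chr12:109710175-109710256, Mir376c chr12:109722718-109722803, Mir376b chr12:109723458-109723539 and Mir376a chr12:109723781-109723848, so that the 3 miR-376 hairpins sit within 1131 bases. In the GENCODE annotation none of them overlapped an exon or intron of a gene of another type, and the Mir376a hairpin also overlapped a second miRNA gene model, Gm25252. The edited base of miR-376b-3p is base 109723513 and that of miR-411-5p base 109710194. Both lie in the triplet UAG, and the 6 members with a sequence hold 6 adenosines in this triplet among 37 adenosines in all. Of the 6 in UAG, 3 had any internal A-to-G read, among them position 14 of miR-411-5p with 1 of 27039 reads. Of all 37, 7 had such a read. In the minimum free energy fold of the hairpins, the edited adenosine of miR-376b-3p was paired with U and that of miR-411-5p was unpaired.

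The seeds differ among the members. Of the 1679 mature sequences in the table, no other one shared the seed of miR-376b-3p or of miR-376a-3p, and miR-7229-5p shared that of miR-411-5p. No mature sequence in the table had either edited seed. Sequences of miR-376b-3p and miR-376a-3p are equal at 18 of 21 bases and differ by A4G, C13A and U20G (base of miR-376b-3p first), of which A4G is in the seed. miR-376a-3p therefore has the same UAG triplet at positions 5 to 7.

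Total counts per library were 85436 to 169639 with UC (median 132335) and 154884 to 676726 with the kit (median 277043). The brain miRNAs miR-124-3p, miR-9-5p, miR-128-3p and miR-138-5p summed to between 29501 and 42511 CPM (reads per 1000000 reads assigned to miRNAs) in UC libraries and between 46347 and 77548 CPM in kit libraries. The 3 blood markers (miR-451a, miR-144-3p and miR-486a-5p) summed to at most 11.3 CPM in UC and 184 CPM in kit libraries, and the liver marker miR-122-5p to at most 4.72 CPM. The choroid plexus markers miR-204-5p and miR-448-3p reached 2867 CPM in UC and 3206 CPM in kit libraries. The part of these sources in the levels below was not tested.

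The members held 29168 of 5371420 reads, and miR-411-5p alone held 27039 of them (92.7%). It was read in all 24 libraries, with at most 520 reads (median 303.5) in UC and at most 3285 reads (median 1852) in kit libraries. miR-376b-3p had 862 reads in 24 libraries, miR-376a-3p 697 reads in 23, miR-376b-5p 315 in 24, miR-376c-3p 124 in 22, miR-411-3p 119 in 18 and miR-376a-5p 12 in 8. The more abundant arm was thus the 5p arm of the miR-411 hairpin and the 3p arm of the miR-376a and miR-376b hairpins. Every editing level of the miR-376 members with UC rested on few reads, at most 26 of miR-376b-3p in a library.

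Internal A-to-G reads were counted at every position of each member and divided by all reads of that miRNA in the library. The study's rule keeps a position where, in at least 2 of the 3 libraries of a group, a miRNA with at least 10 reads has more A-to-G reads than an error rate of 0.01 gives (one-sided exact binomial test, adjusted within the library). The study further limited its sites to miRNAs from bona fide miRNA genes, a step that was not applied here. Of 397 A-to-G positions listed in any library, 10 were kept (2.52%). Among these, 4 lay in positions 2 to 8 of the miRNA, and 3 of the 4 were in the members: position 6 of miR-376b-3p, position 6 of miR-376c-3p and position 5 of miR-411-5p. The fourth was position 7 of miR-3099-3p. Internal changes other than A-to-G were listed for 128 reads of the series and for 0 reads of the members. Whether all mismatches were listed is not known, so this count of 0 sets no limit on other changes. Intervals and limits given here cover counting error only.

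miR-376b-3p was read mostly in its edited form. Over all libraries, 668 of 862 reads carried A6G (77.5%, 95% Wilson interval 74.6 to 80.2%). The mean level was 77.1% ± 8.15 (SD, n = 22 libraries with at least 10 reads), and the lowest, median and highest levels were 60%, 76.9% and 93.3%. All 24 libraries held edited reads, and all 22 with at least 10 reads passed the test. None of the other 7 adenosines of miR-376b-3p had an internal A-to-G read, which allows up to 0.348% of all 862 reads at each. Whether a further internal change would be listed for a read that carries A6G is not known, so this limit may be too low.

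miR-411-5p carried the edit in a minority of its reads. In total 4751 of 27039 reads had A5G (17.6%, interval 17.1 to 18.0%), the mean level was 19.5% ± 3.77 (SD, n = 24), and the libraries ranged from 13.2% to 26.3%. All 24 libraries passed the test. miR-411-5p was the more abundant miRNA, and its edited form was read more often than edited miR-376b-3p: 480 CPM ± 188 against 84.3 CPM ± 33.5 in UC and 1129 CPM ± 288 against 149 CPM ± 36.7 in kit libraries (mean ± SD, n = 12 each). The unedited form of miR-411-5p had 1770 CPM ± 555 in UC and 5203 CPM ± 846 in kit libraries, and that of miR-376b-3p had 22.0 CPM ± 11.4 and 42.4 CPM ± 15.0.

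miR-376c-3p was edited at a level between these, on few reads. Edited reads made up 54 of 124 (43.5%, interval 35.1 to 52.3%). They were present in 19 of the 22 libraries in which it was read, but only 4 libraries, all prepared with the kit, had at least 10 reads. In those 4 the levels were 33.3%, 37.5%, 50% and 50%, and each passed the test. With UC, 13 of 25 reads were edited (52%, interval 33.5 to 70.0%), which overlaps the 41 of 99 with the kit (41.4%, interval 32.2 to 51.3%). Altered 3′ ends of 5 or more bases were listed for 17.2% of its kit reads and 0% of its UC reads. Of these 17 kit reads 0 were edited, so they lower the kit and summed shares. Of the 104 reads without an altered end, 51.9% were edited.

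The remaining members had few or no internal A-to-G reads. miR-376a-3p had 4 of 697 reads at position 12 (0.574%), 3 of them in 1 library, and 0 at position 6, where its sequence has the same UAG triplet as miR-376b-3p; this allows a share of up to 0.430% of all its reads. Most of its reads had a long altered end, and for the 165 reads without an altered end the count of 0 allows up to 1.82%. miR-376b-5p had 6 of 315 reads at position 7 (1.90%, interval 0.876 to 4.09%), 1 read in each of 6 libraries. Outside position 5, miR-411-5p had 2 internal A-to-G reads at position 7, 3 at position 12 and 1 at position 14. A further 38 of its reads had A-to-G at base 2 listed as an altered 5′ end, outside this count. For miR-411-3p, 0 of 119 reads allow up to 2.52%, and for miR-376a-5p 0 of 12 reads allow up to 25%, so that editing of this arm could not be judged at this depth.

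**Figure D1:**
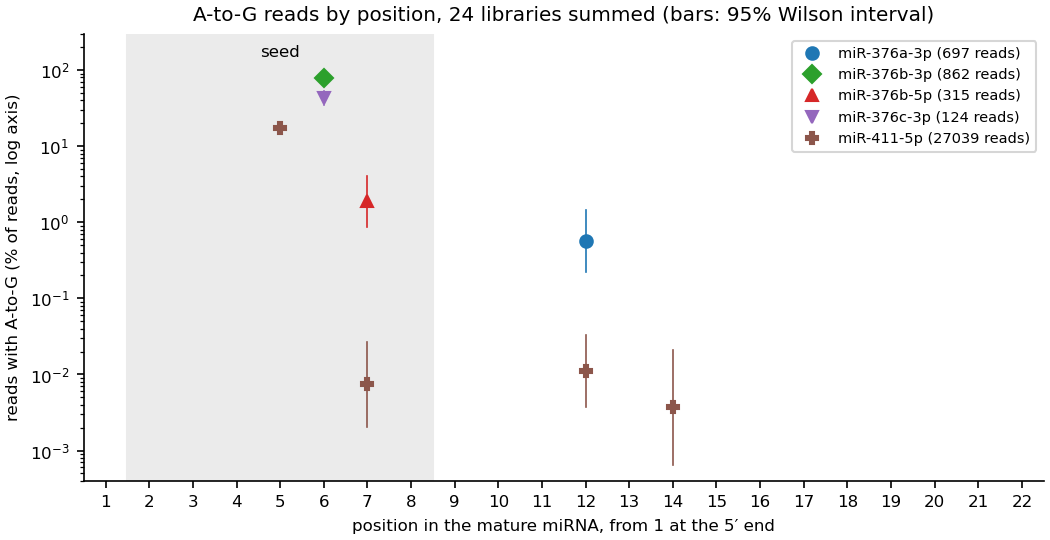
Share of reads with internal A-to-G at each position (x, from 1 at the 5′ end) for the 5 members with any such read, 24 libraries summed, on a log axis in percent (y), with 95% Wilson intervals and the seed shaded. The 3 kept positions, at 77.5%, 43.5% and 17.6%, lie in the seed, and the other 5 lie at 1.90% or less.

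The order of the 3 sites was the same in most libraries. The level of miR-376b-3p was above that of miR-411-5p in 24 of 24 libraries, by 58.0 points ± 8.45 (SD, n = 22 libraries with at least 10 reads of both). It was above that of miR-376c-3p in 20 of 22 libraries, and that of miR-376c-3p was above that of miR-411-5p in 18 of 22. In the 4 libraries with at least 10 reads of each pair, all 4 kept both orders. By mean level, miR-376b-3p ranked 3 among the 10 kept positions, miR-376c-3p ranked 6 and miR-411-5p ranked 7. miR-3099-3p position 7 had 87.4% ± 4.57 (n = 24), miR-378a-3p position 16 had 53.7% ± 9.78 (n = 24) and miR-421-3p position 14 had 6.85% ± 4.87 (SD, n = 21). No position of miR-381-3p was kept here, whereas the study lists its position 7 as slightly edited. The study does not list miR-376c-3p among its 6 edited miRNAs.

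**Figure D2:**
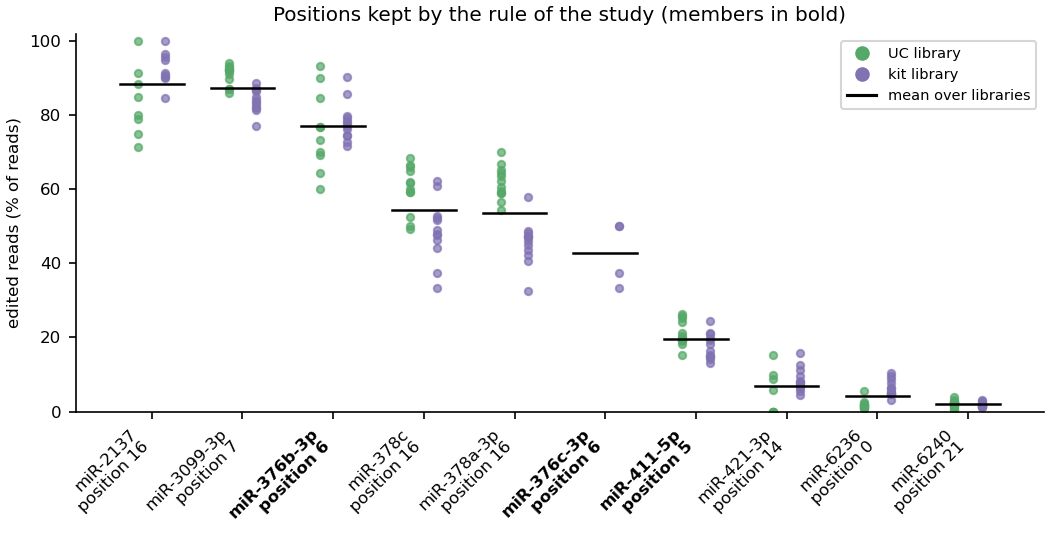
Editing level in percent of reads (y) at the 10 kept positions in order of their mean (x, members in bold), 1 point per UC or kit library with at least 10 reads of the miRNA, line at the mean. miR-376b-3p stands at 77.1%, between miR-3099-3p at 87.4% and the miR-378 sites, and miR-411-5p at 19.5%.

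The spread between libraries was set against that of counting. For miR-376b-3p the SD of the levels was 10.8 points with UC (10 libraries) and 5.32 points with the kit (12 libraries), where counting alone would give 11.0 and 5.78 points. For miR-411-5p it was 3.39 points with UC and 3.47 points with the kit, where counting alone would give 2.57 and 0.899 points. Across libraries of 1 method the 2 levels had a Pearson r of 0.42 with UC (Spearman rho 0.41, n = 10, permutation p = 0.221 and 0.232, adjusted over the 2 methods 0.442 and 0.464) and of −0.05 with the kit (rho −0.15, n = 12, permutation p = 0.916 and 0.638, adjusted 0.916 and 0.638). Without the 2 libraries farthest from the median level of miR-376b-3p, r was 0.00070 with UC and −0.46 with the kit.

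At 24 h, the question was whether status epilepticus changed the share of edited reads. In UC controls, miR-376b-3p was edited in 6 of 6, 7 of 10 and 18 of 20 reads, and in UC KA libraries in 14 of 15, 11 of 15 and 5 of 6 reads. With the kit, the levels were 76.3%, 85.7% and 72.7% in controls and 74.7%, 78.4% and 79.7% after KA. The groups overlapped with both methods. KA minus control was 1.35 points over both methods (10 libraries with at least 10 reads, exact permutation test within method, two-sided p = 0.75, adjusted p = 0.83), less than the SD within groups of 8.86 points.

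For miR-411-5p at 24 h, UC controls had 20.3%, 19.9% and 19.2%, and UC KA libraries had 24.1%, 21.2% and 25.1%. These groups did not overlap, which held for 2 of the 6 sites with levels in all 6 libraries (33.3%), and the difference of 3.64 points had the smallest p that 3 against 3 can give (exact permutation p = 0.1, adjusted p = 0.45). With the kit, controls had 16.4%, 24.4% and 21.0%, and KA libraries 18.3%, 15.3% and 20.0%, a difference of −2.76 points with overlapping groups (exact permutation p = 0.4). Over both methods KA minus control was 0.44 points (exact permutation p = 0.83, adjusted p = 0.83).

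At 2 weeks the levels overlapped in both methods. miR-376b-3p had 69.2%, 64.3% and 76.9% in UC controls and 84.6%, 76.9% and 60% in UC KA libraries. With the kit, controls had 79.2%, 74.4% and 78.0% and KA libraries 90.3%, 77.0% and 71.7%. The difference was 3.10 points (12 libraries, exact permutation p = 0.525, adjusted p = 0.857).
For miR-411-5p at 2 weeks, UC controls had 19.3%, 19.2% and 25.7%, and UC KA libraries 18.3%, 26.3% and 15.4%. Kit controls had 13.2%, 14.7% and 19.3%, and kit KA libraries 15.0%, 14.3% and 21.3%. The KA and control values interleave, and the difference was −0.12 points (exact permutation p = 0.97, adjusted p = 0.97).

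No KA difference of a member site passed the test, and of the 9 kept sites tested, 0 passed at 24 h (0%) and 0 at 2 weeks (0%), with 0 under an unadjusted p of 0.05 at either time. Over both times, where 0% of the sites passed and 1 was under an unadjusted p of 0.05 (11.1%), KA minus control was 2.23 points for miR-376b-3p (permutation over all 48000 arrangements, p = 0.551) and 0.16 points for miR-411-5p (160000 arrangements, p = 0.910). The KA difference at 2 weeks minus that at 24 h was 1.75 points for miR-376b-3p (exact permutation p = 0.814) and −0.56 points for miR-411-5p (exact permutation p = 0.842). Comparing 2 weeks with 24 h gave −4.58 points for miR-376b-3p (exact permutation p = 0.268) and −1.95 points for miR-411-5p (exact permutation p = 0.183, adjusted p = 0.402 for both). miR-376c-3p had too few libraries with 10 reads for a test. In kit libraries at 24 h it was edited in 4 of 6, 5 of 9 and 5 of 7 reads of the controls and in 2 of 4, 5 of 10 and 2 of 8 reads after KA. All 3 controls were above the 3 KA libraries, on 4 to 10 reads each, and the summed shares, 63.6% (interval 43.0 to 80.3%) and 40.9% (interval 23.3 to 61.3%), had overlapping intervals. Of the 8 sites with at least 10 reads in every library of that comparison, 0 had groups apart (0%). With UC the summed shares went the other way. At 24 h they were 1 of 4 reads in controls (25%) and 4 of 7 after KA (57.1%). At 2 weeks they were 3 of 7 (42.9%) and 5 of 7 (71.4%). At 2 weeks the kit values were 4 of 12, 1 of 4 and 1 of 5 reads in controls and 5 of 10, 6 of 16 and 1 of 8 reads after KA, and overlapped.

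**Figure D3:**
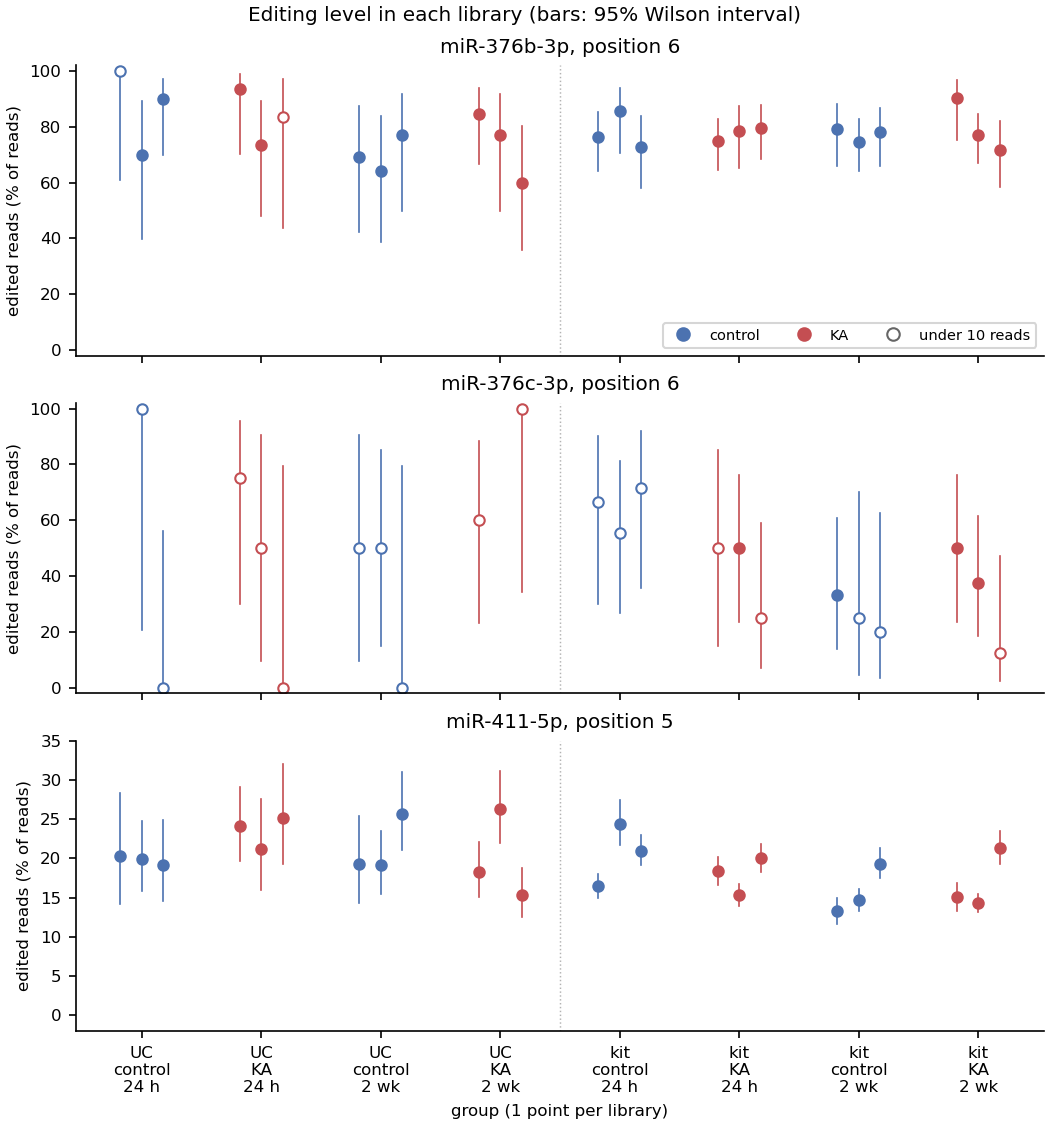
Editing level in percent of reads (y) of the 3 kept member sites in each of the 24 libraries by group (x), with 95% Wilson intervals; open points have under 10 reads. The 3 KA libraries of miR-411-5p with UC at 24 h (21.2 to 25.1%) lie above the 3 controls (19.2 to 20.3%), those of miR-376c-3p with the kit at 24 h lie below the controls on 4 to 10 reads each, and the groups of miR-376b-3p overlap at both times and with both methods. With UC at 24 h the summed share of miR-376c-3p was higher after KA (57.1%) than in controls (25%).

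Between methods, the level of miR-411-5p was lower with the kit. It ranged from 13.2% to 24.4% (median 17.4%) with the kit and from 15.4% to 26.3% (median 20.1%) with UC, so the ranges overlap, and the means were 17.8% and 21.2%. Kit minus UC was −3.39 points (permutation over 160000 arrangements within treatment and time, p = 0.0302, adjusted p = 0.0472), and 6 of the 9 sites passed (66.7%). When replicates were blocked by number, the adjusted p was 0.0674 (permutation test), and when 1 library at a time was left out it ranged from 0.0164 to 0.105 and was above 0.05 in 15 of 24 cases. miR-376b-3p had 78.2% ± 5.32 with the kit (n = 12) and 75.9% ± 10.8 with UC (SD, n = 10). Averaged over the differences within treatment and time, kit minus UC was 1.34 points (permutation p = 0.721). The shares of summed reads went the other way, at 77.3% with the kit and 78.3% with UC. When reads without an altered end alone were counted, kit minus UC was −12.1 points. Replicate 1 of UC KA at each time was then the only UC library left with 10 reads, and no UC control entered. Method and library set cannot be told apart.

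When all reads were counted, 5 members were higher with the kit, and the calls of miR-376a-3p and miR-376b-3p were lost when reads without an altered end alone were counted, at log2 differences of −0.71 and 0.53. miR-411-5p had 1283 to 3465 CPM with UC (median 2205) and 4854 to 8171 CPM with the kit (median 6031), so that no kit library was as low as the highest UC library. Kit minus UC was 1.47 on the log2 scale (SE 0.16, edgeR quasi-likelihood test, adjusted p = 5.03e-10), and 2.19 (SE 0.43) for miR-411-3p, which had 9 reads in all UC libraries. For miR-376b-3p, 62.6 to 154 CPM with UC (median 96.7) stood against 125 to 269 CPM with the kit (median 198), a log2 difference of 0.78 (SE 0.19, edgeR adjusted p = 0.000516). miR-376b-5p differed by 1.32 (SE 0.26), miR-376a-3p by 1.37 (SE 0.27) and miR-376c-3p by 0.70 (SE 0.38, edgeR adjusted p = 0.0986). Of the 6 members tested, 5 passed, all higher with the kit, where 132 of 397 miRNAs tested were called higher (33.2%) and 263 called in all (66.2%). The median log2 difference was 1.34 over the 6 members and −0.02 over all miRNAs tested. Of 35 other miRNAs of the miR-379/410 cluster tested, 14 were called higher and 13 lower, with a median of 0.06.

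No member passed the adjusted test between KA and control. In the 4 comparisons edgeR called 0 of the 6 members tested with UC at 24 h (all miRNAs 0.476%), 0 of 6 with UC at 2 weeks (0.952%), 0 of 7 with the kit at 24 h (0%) and 0 of 7 with the kit at 2 weeks (0%), and DESeq2 and limma-voom also called 0 members in each. At an unadjusted p under 0.05 there was 1 member with UC at 2 weeks (all miRNAs 7.86%) and 1 with the kit at 24 h (4.62%), miR-376a-3p both times, and 0 members in the other 2 comparisons (2.86% and 2.69%). With the kit at 24 h this count was 0 with DESeq2, with RLE factors, with library size only, with no filter, with at least 10 counts and with reads without an altered end, where the log2 difference of miR-376a-3p was 0.59 (SE 0.58). The median log2 difference of the members was 0.61 with UC at 24 h. There 6 of 6 were above 0, at SEs of 0.31 to 1.34, beside 238 of 420 miRNAs tested. The members' median was −0.0027 with UC at 2 weeks (−0.09 without miR-411-3p, whose controls had 0 reads), 0.04 with the kit at 24 h (−0.077 with RLE factors) and 0.05 with the kit at 2 weeks. Of the other cluster miRNAs, 0 of 35 were called with UC and 0 of 50 with the kit at either time. The median log2 differences of these cluster miRNAs were 0.02 at 24 h and 0.18 at 2 weeks with UC and 0.08 and −0.15 with the kit, beside 0.06, 0.02, 0.09 and −0.01 over all miRNAs tested.

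For miR-411-5p, KA and control means differed by less than 1 SE or just above it. With UC at 24 h it had 1734 CPM ± 511 in controls and 2152 CPM ± 784 after KA, a log2 difference of 0.22 (SE 0.31), and at 2 weeks 2376 CPM ± 986 and 2736 CPM ± 382 (SD, n = 3 each), a difference of 0.33 (SE 0.31). With the kit the means were 6956 CPM ± 1289 and 6571 CPM ± 1054 at 24 h (0.04 with TMM scaling, SE 0.25, and −0.083 with library size only) and 6230 CPM ± 927 and 5571 CPM ± 753 at 2 weeks (−0.16, SE 0.25). For miR-376b-3p the 4 log2 differences were 0.09 (SE 0.50), 0.08 (SE 0.48), 0.13 (SE 0.35) and −0.46 (SE 0.35) in the same order, none past the test (lowest edgeR adjusted p = 0.952).

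miR-376a-3p was the member with the lowest p between KA and control. With the kit at 24 h, controls had 134, 123 and 104 CPM and KA libraries 145, 259 and 209 CPM. These groups did not overlap, as for 47 of 520 miRNAs tested (9.04%), and the log2 difference was 0.88 (SE 0.40, edgeR adjusted p = 0.839). With UC at 2 weeks the direction was the opposite, with 88.3, 64.8 and 129 CPM in controls and 23.8, 66.6 and 0 CPM after KA, a log2 difference of −1.55 (SE 0.63, edgeR adjusted p = 0.499). These UC values rest on 33 and 14 reads in 3 libraries each, and 1 KA library had 0 reads. miR-411-3p with UC at 2 weeks had 0 reads in the 3 controls and 2, 1 and 1 reads in the KA libraries, too few for a fold. Non-overlapping groups with UC at 2 weeks were found for 43 of 420 miRNAs (10.2%). With UC at 24 h and the kit at 2 weeks 0 members had such groups, beside 9.76% and 4.81% of all miRNAs.

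**Figure D4:**
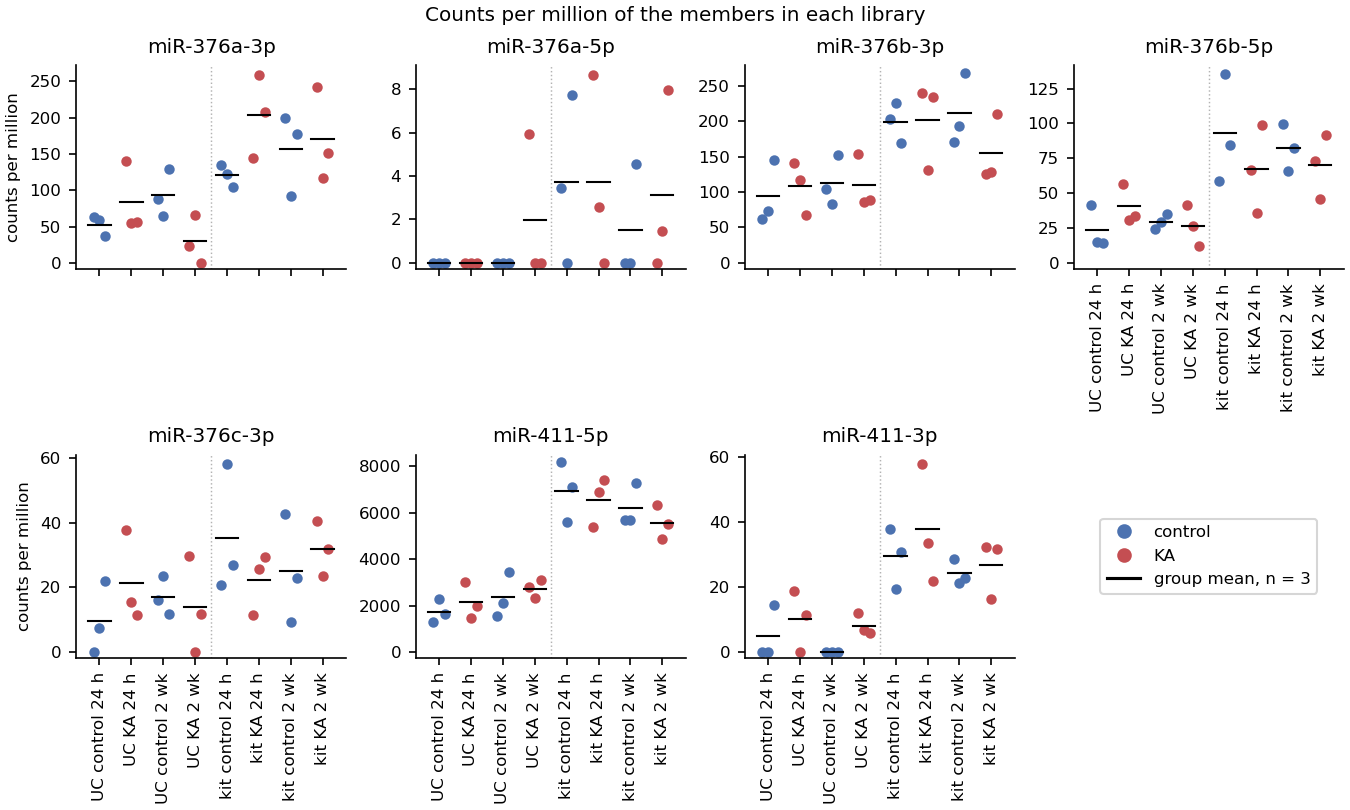
CPM (y, a scale for each panel) of the 7 members in each library by group (x), 1 point per library, line at the group mean (n = 3). miR-411-5p reaches 8171 CPM and miR-376b-3p 269 CPM, and the kit libraries of miR-411-5p all lie above the UC libraries.

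Time did not move the members past the test either. Comparing 2 weeks with 24 h in controls and in KA libraries of each method, edgeR called 0 members in the 4 comparisons, where it called 0 of 420 (0%) and 4 of 420 (0.952%) miRNAs with UC and 0 of 520 (0%) and 1 of 520 (0.192%) with the kit. At an unadjusted p under 0.05 there was 1 member, miR-376a-3p, in the UC KA libraries (log2 difference −1.40, SE 0.65, edgeR adjusted p = 0.402), where 10.5% of all miRNAs passed. In the other 3 comparisons 0 members were under this p, beside 4.05% of all miRNAs in UC controls, 3.65% in kit controls and 3.08% in kit KA libraries. The KA difference at 2 weeks minus that at 24 h gave 0 members called with UC (all miRNAs 0.476%) and with the kit (0%), and at an unadjusted p under 0.05 miR-376a-3p with UC (all miRNAs 6.9%) and 0 members with the kit (3.27%).

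The miRNAs most like the edited members over the 24 libraries were found by Pearson correlation of log2 CPM after subtraction of each method's mean, among 162 other miRNAs with a mean of at least 100 CPM in both methods. For miR-411-5p they were miR-16-5p (r = 0.85), miR-154-5p (r = 0.78), which lies in the same cluster, and miR-26b-5p (r = 0.75). For miR-376b-3p they were miR-93-5p (r = 0.65), miR-126a-5p (r = 0.51) and miR-26b-5p (r = 0.50). Between miR-376b-3p and miR-411-5p themselves r was 0.25. These points share libraries and depth.

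Read ends set miR-376b-3p apart from the other members. Of its 862 reads, 317 ended without an altered base, and 520 (60.3%, interval 57.0 to 63.5%) had a single C as their altered 3′ end, in 519 of them in place of the last base, U21C. This form, with the seed and the altered last base in capitals, was the most frequent one when joined to the edit:
miR-376b-3p edited, C end: aUCAUGGAggaacauccacuC
A single C at the 3′ end was present in 45.3% to 70.7% of the reads of a kit library (median 64.2%) and in 33.3% to 80% of those of a UC library (median 59.3%). Among the 312 miRNAs with at least 100 reads, its share ranked 1, above 19.7% for the next miRNA, where the median was 0.0484%. In miR-376a-3p the share was 1.29%, and miR-376b-5p, miR-376c-3p, miR-411-5p and miR-411-3p had 0 such reads.

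Edited and unedited reads both carried the C end. Of the reads with the C end, 405 of 520 were edited (77.9%, interval 74.1 to 81.2%), and of those without an altered end, 251 of 317 (79.2%, interval 74.4 to 83.3%). The share of reads with any altered 3′ end was 61.6% in edited and 68.2% in unedited reads of the same library, a difference of −6.55 points ± 26.1 (SD, n = 18 libraries with at least 10 edited reads, sign-flip permutation p = 0.309, adjusted p = 0.397). The unedited shares rest on few reads, from 1 (UC KA 24 h replicate 1, share 100%) to 21 (kit KA 24 h replicate 1, share 47.6%) per library. Of the 9 sites tested, 6 passed (66.7%). For miR-411-5p, altered 3′ ends were rare in edited reads (0.810%) and in unedited ones (0.656%), a difference of 0.15 points ± 0.94 (SD, n = 24, permutation p = 0.436). When altered ends at either side were counted the difference turned to −0.66 points (permutation p = 0.0164, adjusted p = 0.0246). The 38 reads that list a G at base 5 as an altered 5′ end are counted as unedited there.

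miR-376a-3p had another kind of end. Altered 3′ ends of at least 5 bases were present in 509 of its 697 reads (73.0%, interval 69.6 to 76.2%), and the sequence match ended after base 15 in 345 and after base 16 in 152 of them. With the kit 490 of 604 reads had such an end (56% to 96.4% per library, median 82.1%), and with UC 19 of 93 (0% to 37.5% in 11 libraries, median 20%), so the methods did not overlap. When only reads without an altered end were counted, for all miRNAs, kit minus UC for miR-376a-3p turned from 1.37 to −0.71 on the log2 scale (SE 0.33, edgeR adjusted p = 0.0555) and that of miR-376b-3p fell to 0.53 (SE 0.25, edgeR adjusted p = 0.0644). miR-376b-5p, miR-411-5p and miR-411-3p stayed higher with the kit, at 1.28, 1.40 and 2.08, as 3 of 6 members against 31.9% of all miRNAs tested. For miR-376c-3p, 17 of 124 reads had a long altered end and 0 of these 17 were edited, whereas 54 of 104 reads without an altered end were (51.9%, interval 42.4 to 61.3%).

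**Figure D5:**
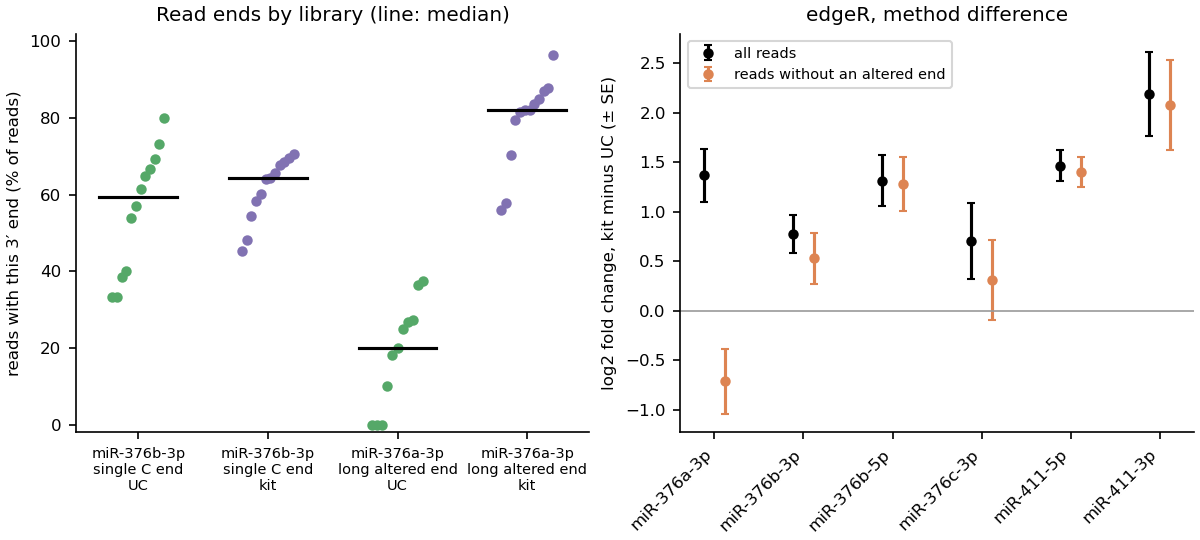
Left, share of reads in percent (y) with a single C end (miR-376b-3p) or a long altered 3′ end (miR-376a-3p) in each UC and kit library, line at the median. Right, log2 fold change of kit minus UC (y, ± SE, edgeR) of 6 members from all reads and from reads without an altered end. miR-376a-3p is the member whose value changes sign, from 1.37 to −0.71.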

How the data were processed

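Small RNA libraries (TruSeq, MiSeq) were trimmed and mapped by the authors to miRBase hairpins with the Chimira web server. How reads that match several hairpins were assigned is not given in the sources used here. The deposited values are raw counts of reads per mature miRNA and, in a second table, counts of reads per internal change or altered end; the totals of both tables were equal for 11992 of 11992 miRNA and library combinations. Rows marked DOUBLED (11791 reads, 4 in the members) were left out. Listed internal positions, counted from 1, fell on an A in 18396 of 18396 reads matched to a mature sequence, and position 0 of a 3′ end was taken as the last base, which gave an A for 15680 of 15682 reads with an A-to-G end.

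Groups and replicate numbers follow the labels, which call replicates separate samples; p-values measure the spread between these pools. Abundance was tested with edgeR 4.0.16 (R 4.3.3, quasi-likelihood, TMM; more than 1 CPM in at least 6 of the 12 libraries of a method; Benjamini-Hochberg over all miRNAs tested, threshold 0.05), with DESeq2 1.42.0 and limma 3.58.1 as alternatives. Editing levels, ends and figures were computed in Python 3.11.15 with scipy 1.17.1, and hairpins folded with RNAfold 2.7.2. Abundance was tested over every miRNA and editing levels and ends over every kept site with enough reads, and these tests were tested on simulated data. Deviations of same-numbered KA and control libraries had correlations of 0.111 to 0.214 (UC) and 0.192 to 0.310 (kit) at 2 weeks. At 24 h the correlations were −0.246 to 0.112. The ranges of the 2 times meet, and the difference between the times was not tested. Named beside the members are the other kept sites that the study lists and the 3 miRNAs most correlated with each edited member. Alternatives were other scalings, filters, tools, minimum reads, a replicate block and leaving out each library. The members, lists and rules were chosen with earlier results of these data known.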

Additional observations from a re-analysis of the deposited data

Results flagged for a closer look

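Reads outside the internal A-to-G count of the members also carried A-to-G. In miR-411-5p, 38 reads from 19 libraries had A-to-G at base 2 and 38 reads from 15 libraries at base 5, listed as altered 5′ ends. KA libraries held 20 and 17 of these reads and controls 18 and 21. They stand outside the internal changes on which the editing levels rest. A further 4 reads of the members stood in rows marked DOUBLED.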

How the results depend on the processing

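No KA or time difference of a member passed the threshold under any alternative run, and the directions of several differences that did not pass depended on the setting. For KA minus control at 24 h, the miR-376b-3p level was −0.63 points with kit libraries only, −6.37 points from reads without an altered end and −3.65 to 6.35 points when 1 library was left out, and the miR-411-5p level −2.76 points with kit libraries only and −0.60 to 1.39 points when 1 was left out. At 2 weeks the miR-376b-3p difference was −1.82 points with at least 50 reads and −8.48 points from reads without an altered end, and that of miR-411-5p was 1.14 points with kit libraries only and −1.69 to 1.03 points when 1 was left out. Over both times miR-376b-3p gave −0.24 points with at least 50 reads, −7.42 points from reads without an altered end and −0.27 to 4.73 points when 1 was left out, and miR-411-5p −0.63 to 0.74 points. For 2 weeks minus 24 h, miR-376b-3p was 0.50 points with kit libraries only. For kit minus UC the miR-376b-3p level was −12.1 points from reads without an altered end and −1.16 to 3.84 points when 1 library was left out. Only replicate 1 of UC KA at each time had at least 10 reads of miR-376b-3p without an altered end. No UC control did, so the KA differences of miR-376b-3p from such reads rest on kit libraries only. The difference of −3.39 points for miR-411-5p kept its size in the replicate block but not its call, and ranged from −3.96 to −2.60 points with 1 library left out. The 9 cases that kept its call left out replicate 3 of UC control 24 h, UC KA 2 weeks, kit KA at both times and kit control at 2 weeks, or UC control 2 weeks replicates 1 and 2, UC KA 24 h replicate 2, or kit control 24 h replicate 2. For altered ends at either side of miR-411-5p reads the difference was −0.66 points.

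In abundance, kit minus UC for miR-376a-3p was −0.71 from reads without an altered end, and the number of members called fell from 5 to 3 there and to 2 with at least 10 counts, where only 2 members were tested and both were called (4 to 5 with 1 library left out). The kit 24 h log2 difference of miR-411-5p was −0.077 with DESeq2, −0.077 with RLE factors, −0.083 with library size only, −0.066 with no filter and −0.00623 with at least 10 counts, and −0.12 to 0.19 with 1 library left out. Leaving out 1 library also gave −0.055 to 0.32 (kit 24 h) for miR-376b-3p, −0.18 to 0.63 (UC 24 h) and −0.14 to 0.30 (UC 2 weeks), −0.062 to 0.36 for miR-411-5p (UC 24 h) and −0.22 to 0.43 for miR-376a-3p (kit 2 weeks). The number of all miRNAs called for kit minus UC was 163 with at least 10 counts. For UC KA at 24 h it was 4 in the replicate block. For UC KA at 2 weeks it was 2 with at least 10 counts or without altered ends, 0 with library size only, 1 with limma-voom or no filter, and 0 to 5 with 1 library left out. For 2 weeks minus 24 h in UC KA libraries it was 9 in the replicate block, 2 without altered ends and 2 to 5 with 1 left out. For UC KA by time it was 1 with DESeq2, at least 10 counts, library size only or no filter, 0 with limma-voom or without altered ends, and 0 to 5 with 1 left out. For kit KA at 2 weeks it was 2 with DESeq2, no filter or the replicate block, 1 with RLE, library size only or without altered ends, and 0 to 2 with 1 left out. For 2 weeks minus 24 h in kit KA libraries it was 0 with at least 10 counts or limma-voom and 0 to 1 with 1 left out, and for kit KA by time 1 with no filter. The replicate block changed no other call of a member. Counts from reads without an altered end were added after the data were seen, and the cause of these changes was not tested. With 10 to 26 reads of miR-376b-3p in the 10 UC libraries used, counting alone gives its levels an SD of 11.0 points.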
